A study of Mus musculus with 8 samples.

Results

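Sox4, Sox11 and Sox12 (the SoxC group), Sox5, Sox6 and Sox13 (SoxD) and Sox8, Sox9 and Sox10 (SoxE) are 9 genes for transcription factors that carry an HMG box, a DNA-binding domain shared by the whole Sox family. They were taken by gene symbol, matched from the RefSeq accessions of the array, and are read by 11 of 39429 gene probes, with a pair of probes each for Sox4 and Sox11. All 11 probes passed the filter on dim probes, as did 23860 probes in all, which stand for 19232 genes. The samples were hand-dissected embryonic cerebral cortex of ICR mice at embryonic day 16: 4 of the ventricular and subventricular zones (V/SVZ), where progenitors divide, and 4 of the cortical plate (CP), the layer of young neurons that have left the cell cycle. No genetic change or treatment is given in the labels for either tissue. Total RNA (100 ng per sample) was labelled with Cy3 and read on 1-colour Agilent arrays. No label states whether replicates were taken from different animals, and the p-values therefore cover sample-to-sample spread that could be technical.

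SoxC factors are activators best known from newly formed neurons, where Sox4 and Sox11 act together on neuronal genes, while Sox12 is the weaker activator. SoxD factors have no activation domain of their own and act as partners or antagonists of other factors: Sox5 restrains and shapes deep-layer cortical neurons, and Sox6 is known from cortical progenitors and from interneurons. SoxE factors are known from stem cells and glia: Sox9 from radial glia and the onset of gliogenesis, Sox8 as its relative, and Sox10 from oligodendrocytes and the neural crest.

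The promoters of the SoxC genes are shown because all 3 genes were called higher in the same tissue. Each runs from 250 bases before the start of the transcript to 50 bases after it, 300 bases in all, from RefSeq on GRCm38.p6, printed 5′ to 3′ on the strand of the gene. Capitals mark CCAAT or its reverse complement, the box read by the general factor NF-Y.
Sox4, chr13:28953650-28953949, minus strand: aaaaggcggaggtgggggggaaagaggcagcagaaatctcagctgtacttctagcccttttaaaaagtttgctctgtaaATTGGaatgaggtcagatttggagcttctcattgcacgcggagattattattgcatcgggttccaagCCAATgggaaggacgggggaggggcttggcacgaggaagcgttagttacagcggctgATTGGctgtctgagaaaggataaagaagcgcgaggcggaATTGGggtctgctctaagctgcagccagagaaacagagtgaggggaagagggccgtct
Sox11, chr12:27342669-27342968, minus strand: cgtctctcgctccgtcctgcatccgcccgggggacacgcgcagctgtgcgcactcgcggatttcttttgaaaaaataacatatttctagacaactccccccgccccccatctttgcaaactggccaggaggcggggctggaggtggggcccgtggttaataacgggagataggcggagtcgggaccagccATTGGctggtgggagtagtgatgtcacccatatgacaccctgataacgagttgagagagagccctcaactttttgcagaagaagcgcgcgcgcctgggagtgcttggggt
Sox12, chr2:152397997-152398296, minus strand: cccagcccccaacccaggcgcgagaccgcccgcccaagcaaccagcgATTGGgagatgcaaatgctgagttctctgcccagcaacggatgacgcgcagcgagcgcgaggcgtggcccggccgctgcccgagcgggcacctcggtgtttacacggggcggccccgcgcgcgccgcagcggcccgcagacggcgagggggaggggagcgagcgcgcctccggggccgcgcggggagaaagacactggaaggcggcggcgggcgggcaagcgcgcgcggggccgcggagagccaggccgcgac
The Sox4 window held 4 such boxes, and the Sox11 and Sox12 windows held 1 each. On either strand, 37.4% of 32851 promoter windows of this length held at least 1. The core letters bound by Sox factors, ACAAT on either strand, occurred in none of the 3 windows and in 31% of all windows. CpG dinucleotides numbered 12 for Sox4, 21 for Sox11 and 47 for Sox12, against a median of 7 over all windows. Promoter windows were found for 7 of the 9 genes, and none was found for Sox9 or Sox10. These matches describe the letters of the windows and were set against no binding data.

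Between 58.4% and 62.9% of gene probes were well above background on an array, and no gene spot was saturated. Arrays of a tissue correlated at 0.992 to 0.995 in V/SVZ and at 0.996 to 0.997 in CP, and arrays of different tissues at 0.879 to 0.895. The dissection was checked with fixed markers. All 8 radial glia and intermediate progenitor markers tested were higher in V/SVZ, with Eomes 336-fold and Top2a 52.2-fold higher, and all 8 cortical plate neuron markers were higher in CP, with Camk2b 164-fold and Mef2c 36.5-fold higher. The V/SVZ arrays were all on slide 1 and the CP arrays all on slide 2, so tissue and slide cannot be told apart. The tissues differed widely: 79.5% of the genes tested passed an adjusted p of 0.05 in limma, 35.0% towards V/SVZ and 44.6% towards CP.

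Of the 9 Sox genes, 4 were called higher in V/SVZ (Sox6, Sox13, Sox8 and Sox9), 4 higher in CP (Sox4, Sox11, Sox12 and Sox5), and Sox10 was not called. Over probes, 4 were called higher in V/SVZ and 6 in CP, against 79.7% of all tested probes called in either direction (35.2% in V/SVZ and 44.4% in CP). The 4 arrays of each tissue did not overlap for 10 of the 11 probes, against 75.5% of all tested probes. These shares lie near the background, so the direction and the size of each change carry more than the count. Differences are given as log2 of V/SVZ over CP, so that a positive value is higher in V/SVZ, and values of single arrays are relative signals, the processed signal divided by the 75th percentile of the array. The median difference over all tested genes was -0.09 and the median absolute difference 0.56. The sign follows the scanner files: in the log2 table the authors deposited, a column named for a V/SVZ array holds the values of the CP array of that number and the reverse, so read by its names that table gives the opposite sign. Tissue was measured in bulk, so fewer cells of a type and less RNA per cell cannot be told apart.

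**Figure D1:**
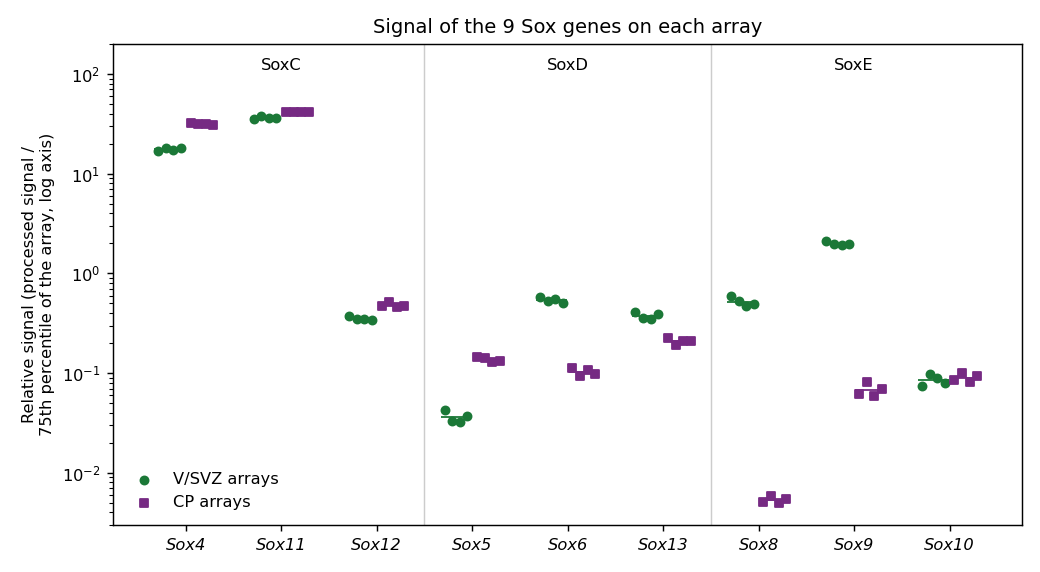
Relative signal (processed signal divided by the 75th percentile of the array, log axis) of the brightest probe of each of the 9 Sox genes on the 4 V/SVZ and 4 CP arrays, 1 point per array with a line at the mean of the log values. The Sox8 and Sox9 points lie far apart between tissues, those of Sox10 overlap, and those of Sox11 lie close together.

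Among the SoxC genes, Sox4 differed most between the tissues. Its brighter probe, A_55_P2121613, read 16.9, 18.0, 17.4 and 18.2 in the V/SVZ samples 1 to 4 and 32.2, 31.6, 31.8 and 31.0 in the CP samples 1 to 4. All 4 CP samples lay above all 4 V/SVZ samples, and the values within a tissue were close together. Sox4 was 1.79-fold higher in CP (log2 -0.84 ± 0.04 SE, 95% interval -0.93 to -0.76, limma adjusted p = 1.49e-07). Its dimmer probe, A_55_P2131899, read 5.26, 5.22, 5.07 and 5.97 in V/SVZ and 8.13, 7.63, 8.16 and 7.68 in CP, again with no overlap. That probe gave a 1.47-fold difference (log2 -0.56 ± 0.06 SE, limma adjusted p = 3.92e-05 over all probes). Both Sox4 probes thus changed the same way but by different amounts, with a difference of -0.29 ± 0.05 SE on the log2 scale (95% interval -0.40 to -0.17, exact two-sided permutation p = 0.0286, the smallest that 4 arrays against 4 allow). Permuted within the 4 sample numbers, this and each of the other pairs of probes or genes compared here gave an exact permutation p = 0.125, the smallest that 4 number pairs allow, so no pair passes with the pairing kept. Each had the same direction in 4 of 4 number pairs. Of all tested probes, 19.8% lay further towards CP than the brighter Sox4 probe.

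Sox11, the close partner of Sox4 in newborn neurons, was bright in both tissues and differed little. Its brighter probe, A_55_P2094721, read 35.6, 38.0, 36.4 and 35.8 in V/SVZ and 41.8, 41.4, 41.1 and 42.0 in CP. The groups did not overlap, but the gap between the highest V/SVZ and the lowest CP sample was small. The difference was 1.14-fold (log2 -0.19 ± 0.03 SE, 95% interval -0.27 to -0.11, limma adjusted p = 0.000848). This call depends on the scaling: it was lost with scaling to the median of each array (log2 -0.10, adjusted p = 0.207) and with normexp background correction (log2 -0.05, adjusted p = 0.304), and the sign turned with no scaling (log2 0.02, adjusted p = 0.766). The call was kept in 10 of 13 other settings, among them spike-in scaling (log2 -0.26) and quantile scaling (log2 -0.14). The 7 spike-in probes that were well above background on every array differed by -0.05 to 0.16 between the tissues on the same scale. The other Sox11 probe, A_52_P160955, read 19.9, 21.0, 22.0 and 21.6 in V/SVZ and 27.0, 27.8, 30.1 and 30.8 in CP. It gave a clearer difference of 1.37-fold (log2 -0.45 ± 0.06 SE, limma adjusted p = 0.000116 over all probes), called under each of those settings. The Sox11 probes differed from each other by 0.26 ± 0.06 SE (95% interval 0.12 to 0.40, exact permutation p = 0.0286).

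Sox12, the weaker activator of the group, read 0.376, 0.352, 0.348 and 0.340 in V/SVZ and 0.471, 0.519, 0.458 and 0.470 in CP (probe A_66_P115541). Every CP sample was above every V/SVZ sample. The difference was 1.35-fold (log2 -0.44 ± 0.05 SE, 95% interval -0.56 to -0.32, limma adjusted p = 9.12e-05). With the brightest probe of each gene, the log2 change of Sox4 minus that of Sox11 was -0.65 ± 0.03 SE, that of Sox4 minus that of Sox12 was -0.41 ± 0.07 SE, and that of Sox11 minus that of Sox12 was 0.25 ± 0.06 SE (exact permutation p = 0.0286 for each, also after adjustment over the 9 pairs compared within the 3 groups). With the mean of the probes of a gene, the last difference was 0.12 (adjusted p = 0.200) and that between Sox4 and Sox12 was -0.26 (adjusted p = 0.0643), so those pairs rest on the choice of probe. The difference between Sox11 and Sox12 also missed the threshold without any single CP array (adjusted p = 0.0571).

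**Figure D2:**
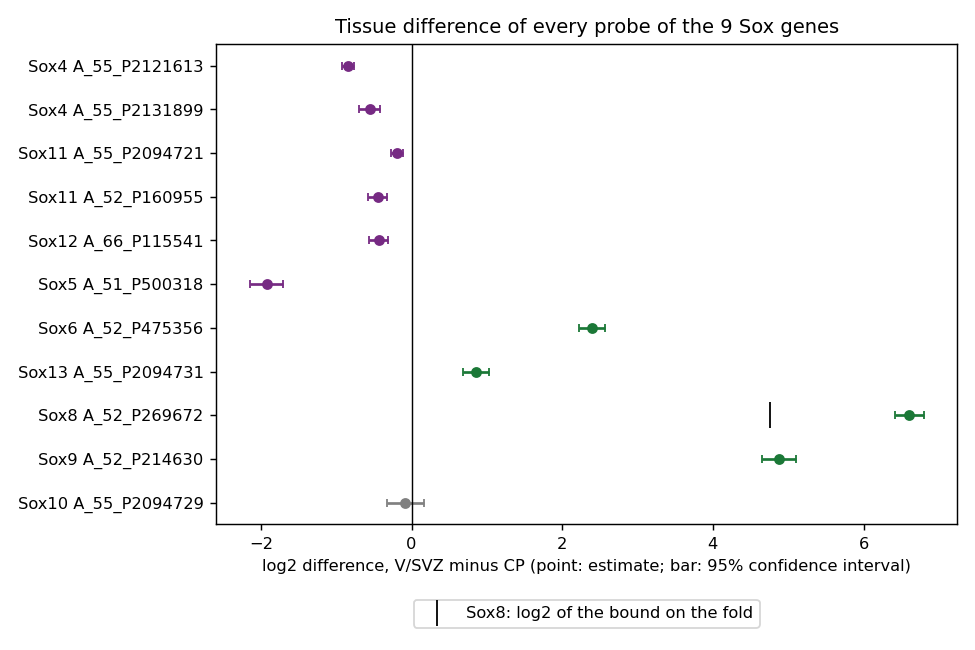
Log2 difference, V/SVZ minus CP, of all 11 probes of the 9 Sox genes, with the estimate as a point and the 95% confidence interval as a bar, and a tick at the bound of Sox8. All SoxC probes and Sox5 lie left of 0, Sox6, Sox13, Sox8 and Sox9 lie right of it, and the interval of Sox10 (-0.33 to 0.16) includes 0.

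The SoxD genes differed in direction. Sox5, which is known for the control of deep-layer neurons and the subplate, read 0.0430, 0.0332, 0.0321 and 0.0368 in V/SVZ and 0.145, 0.141, 0.129 and 0.132 in CP (probe A_51_P500318). All 4 CP samples were well separated from the V/SVZ samples. Sox5 was 3.79-fold higher in CP (log2 -1.92 ± 0.10 SE, 95% interval -2.14 to -1.70, limma adjusted p = 3.86e-07), and 6.99% of all tested probes lay further towards CP.

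Sox6, its close relative, went the other way. Its probe, A_52_P475356, read 0.582, 0.529, 0.548 and 0.503 in V/SVZ and 0.113, 0.0930, 0.108 and 0.0972 in CP. The lowest V/SVZ sample was far above the highest CP sample. Sox6 was 5.26-fold higher in V/SVZ (log2 2.40 ± 0.07 SE, 95% interval 2.22 to 2.57, limma adjusted p = 2.49e-08), and 5.24% of all tested probes lay further towards V/SVZ.

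Sox13, a SoxD gene best known from T lymphocytes, also was higher in V/SVZ. It read 0.414, 0.354, 0.349 and 0.393 there and 0.223, 0.191, 0.211 and 0.209 in CP (probe A_55_P2094731), with no overlap. The difference was 1.81-fold (log2 0.85 ± 0.07 SE, 95% interval 0.69 to 1.02, limma adjusted p = 1.06e-05). Each SoxD pair differed in its change: Sox5 from Sox6 by -4.32 ± 0.11 SE, Sox5 from Sox13 by -2.78 ± 0.07 SE and Sox6 from Sox13 by 1.54 ± 0.07 SE on the log2 scale (exact permutation p = 0.0286 for each after adjustment over 9 pairs).

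Of the SoxE genes, Sox8 and Sox9 had the widest differences of the 9 genes. Sox9, known from radial glia, is read by a probe spotted 10 times per array (A_52_P214630). Its mean read 2.13, 1.97, 1.91 and 1.95 in V/SVZ and 0.0623, 0.0806, 0.0588 and 0.0698 in CP. The V/SVZ samples lay close together and far above every CP sample, and the coefficient of variation over the repeated spots was 2.88% to 9.09%. Sox9 was 29.5-fold higher in V/SVZ (log2 4.88 ± 0.10 SE, 95% interval 4.66 to 5.11, limma adjusted p = 2.44e-09), and 0.985% of all tested probes lay further the same way. With normexp background correction the fold was 19.0.

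Sox8, which shares much of the sequence of Sox9, read 0.587, 0.533, 0.475 and 0.494 in V/SVZ (probe A_52_P269672). In CP it read 0.00506, 0.00590, 0.00497 and 0.00550 and was not well above background on any of the 4 arrays. Its CP level is therefore only a bound. Set against the lowest signal that was well above background on each CP array, Sox8 was at least 27.1-fold higher in V/SVZ. The call rests on the fit to the processed signals, dim CP values included (limma adjusted p = 4.03e-10), and the bound itself was not tested. With normexp background correction, which adds an offset of 50, the measured fold was 10.9 and lay below that bound. The order of the Sox8 and Sox9 changes was not settled: the difference between them was 1.72 ± 0.06 SE with the processed signals, where it rests on the dim CP values of Sox8, and -0.80 with normexp (exact permutation p = 0.0286 in both).

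Sox10, the SoxE gene of oligodendrocytes and neural crest, read 0.0749, 0.0984, 0.0888 and 0.0787 in V/SVZ and 0.0845, 0.101, 0.0808 and 0.0942 in CP (probe A_55_P2094729). The samples of the tissues overlapped, although the probe was well above background on all 8 arrays. The difference was -0.08 ± 0.11 SE on the log2 scale (95% interval -0.33 to 0.16, limma adjusted p = 0.484), which does not show that the levels were equal. Its change differed from that of Sox9 by 4.97 ± 0.12 SE (95% interval 4.68 to 5.25) (exact permutation p = 0.0286 after adjustment over 9 pairs). Against Sox8, which was below background in CP, the same difference was 6.69 with the processed signals and 3.59 with normexp, so its size was not settled.

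**Figure D3:**
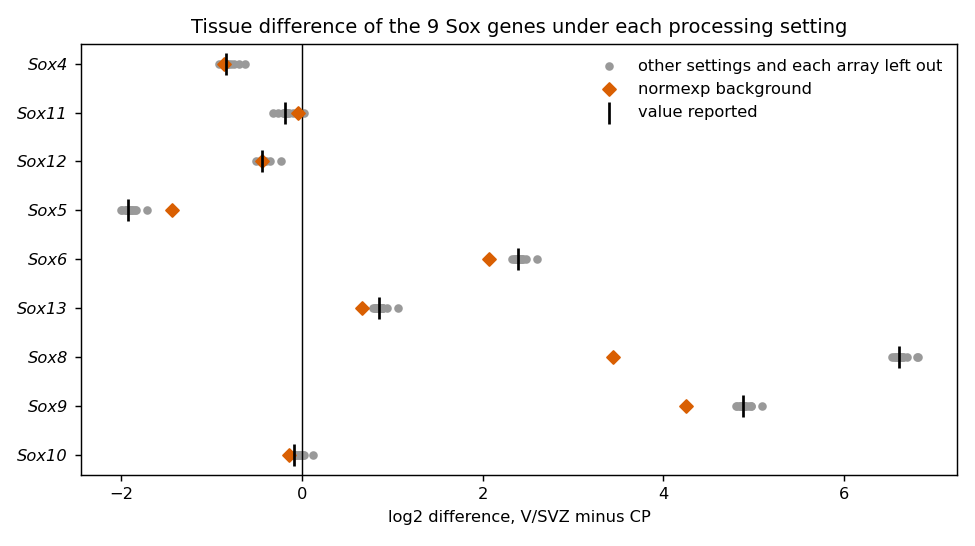
Log2 difference, V/SVZ minus CP, of each of the 9 Sox genes under each processing setting (grey points, with normexp as a diamond) and as reported (black tick). Sox4, Sox12, Sox5, Sox6, Sox13, Sox8 and Sox9 stay on their side of 0, Sox11 reaches 0.02 with no scaling, and Sox8 spreads from 3.44 to 6.81.

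Other Sox genes gave a comparison for these values. Of 10 listed, 8 were tested, and 4 were called higher in V/SVZ, 2 higher in CP and 2 not called, with a median difference of 0.85. The widest differences of the 8 were those of Sox3, Sox1 and Sox2, SoxB genes of neural progenitors. Sox3 was 114-fold and Sox1 17.5-fold higher in V/SVZ, and Sox2 had a log2 difference of 3.32. Sox21, a SoxB repressor, was 2.74-fold higher in V/SVZ. Among the SoxF genes, which are known from blood vessels, Sox17 (log2 -0.32, limma adjusted p = 0.0129) and Sox7 (log2 -0.23, limma adjusted p = 0.0103) were called slightly higher in CP. With no scaling neither was called (adjusted p = 0.268 for Sox17 and 0.810 for Sox7), and Sox7 was also not called with median or quantile scaling (adjusted p = 0.198 and 0.140). Sox17 had 2 tested probes, and only 1 of them was called. Sox18 had a log2 difference of -0.17 (adjusted p = 0.103) and was called higher in CP with spike-in scaling (adjusted p = 0.0162), with array weights (0.0405) and without CP sample 1 (0.0258). Sox14 had a log2 difference of 0.24 (adjusted p = 0.275), was called higher in V/SVZ with no scaling (adjusted p = 0.0473) and turned with normexp (log2 -0.23, adjusted p = 0.0200). Sox15 and Sox30 did not pass the filter on dim probes. Of 10 endothelial and pericyte markers beside them, 4 were called higher in V/SVZ, none in CP and 6 were not called by limma. Among the 4 were Pdgfrb (log2 0.93), Kdr (0.32) and Cldn5 (0.27). Kdr was not called with normexp (limma adjusted p = 0.0696). Pecam1 had a log2 difference of -0.13 and was not called (limma adjusted p = 0.0527). With normexp 2 of these markers were called in each tissue and with no scaling 7 in V/SVZ.

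The genes that SoxC factors work with and act on were split between the tissues. Of 7 POU and proneural factors tested, 6 were called higher in V/SVZ, and the median difference was 1.84, or 1.65 with genes below background in 1 tissue set at their bound. The proneural genes Neurog2 (47.8-fold) and Neurod1 (7.76-fold) were both higher in V/SVZ. The POU factor gene Pou3f1 was called higher in CP (log2 -0.20, limma adjusted p = 0.00174), but not with median scaling (adjusted p = 0.230) or with no scaling (adjusted p = 0.956).

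Of 12 neuronal genes reported under SoxC control, 10 were called higher in CP and 2 in V/SVZ, with a median difference of -1.42. Stmn2, a microtubule regulator of growing axons, was 9.75-fold higher in CP, and the growth cone gene Gap43 6.11-fold. Tead2, a transcription factor of the Hippo pathway, was 22.0-fold higher in V/SVZ, and Elavl4 was the other gene higher there. Sox4 and Sox12 lay on the same side as most of this list, with smaller differences than its median.

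Of 13 corticofugal and subplate genes tested around Sox5, 10 were called higher in CP, 2 in V/SVZ, and Nxph4 was not called. With the deposited table, which holds fewer genes, 6 were called in CP. The median difference was -2.45, further towards CP than the -1.92 of Sox5 itself. Ntsr1, a receptor gene of layer 6 neurons, was 152-fold and Ldb2, a LIM-domain cofactor, 25.4-fold higher in CP. Ccn2, a matricellular protein gene used as a subplate marker after birth, was 10.8-fold higher in V/SVZ.

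**Figure D4:**
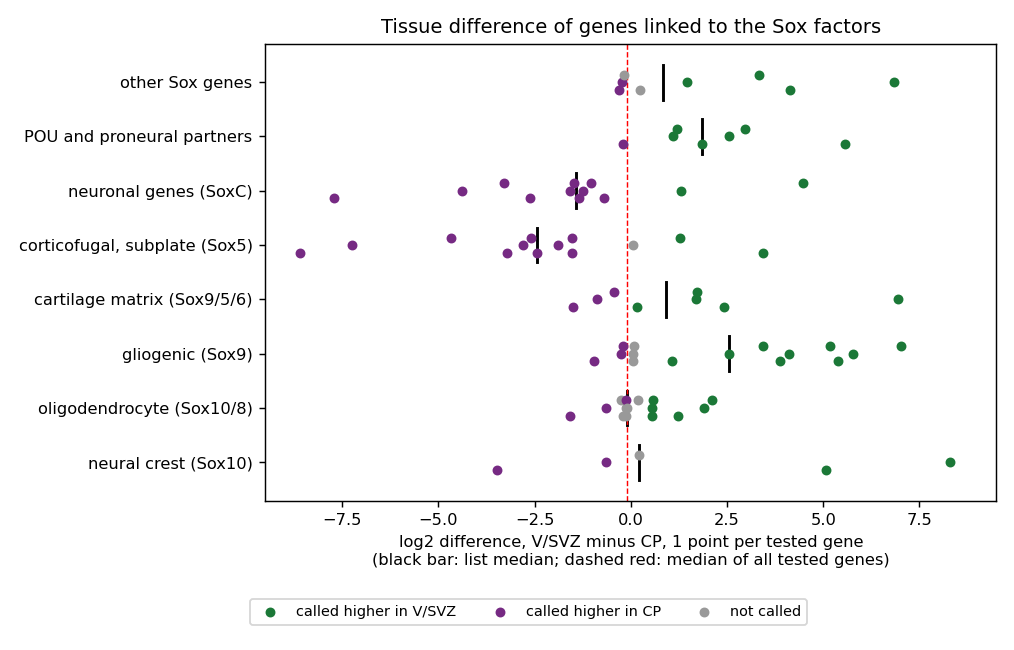
Log2 difference, V/SVZ minus CP, of each tested gene of the fixed lists linked to the Sox factors, 1 point per gene, with a black bar at the median of the list and a dashed line at the median of all tested genes (-0.09). The neuronal and corticofugal lists lie mostly left of 0 and the gliogenic list mostly right of it, with single genes on the opposite side in each.

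Sox9 with Sox5 and Sox6 is known from cartilage, where these factors drive matrix genes together. Of 14 such genes, 8 were tested in the cortex: 5 were called higher in V/SVZ and 3 in CP, with a median difference of 0.93, or 0.43 with bounds. With no filter on dim probes the majority turned, with 4 called in V/SVZ and 5 in CP. Col2a1, the main fibrillar collagen gene of cartilage, was 123-fold higher in V/SVZ (57.0-fold with normexp), and Col11a1, which joins the same fibrils, 3.24-fold. Col11a2 was 2.84-fold (1.85-fold with normexp) and Col9a3 1.84-fold higher in CP. The other 6 genes of the list, among them the proteoglycan gene Acan, did not pass the filter on dim probes.

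The gliogenic genes around Sox9 followed its direction more often than not: 9 of 15 were called higher in V/SVZ, 3 in CP, and Glul, Gfap and Apcdd1 were not called. With no scaling 1 was called in CP. Their median difference was 2.55. Gfap had 2 tested probes, and the dimmer was called higher in V/SVZ. Aldh1l1, a folate enzyme gene used as an astrocyte marker, was 130-fold, Id4, an inhibitor of bHLH factors, 54.8-fold, and Fabp7, a lipid carrier gene of radial glia, 41.7-fold higher in V/SVZ. Nfix, a nuclear factor I gene, was 1.95-fold higher in CP. Hes5 stands both in this list and among the radial glia markers.

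Genes of the oligodendrocyte lineage around Sox10 and Sox8 showed no common direction. Of 15 tested, 6 were called higher in V/SVZ, 3 in CP, or 5 in CP with the replicate number as a block, with spike-in scaling or with normexp, and 6 were not called, with a median difference of -0.10. Olig2, the lineage factor, was 2.33-fold and the myelin enzyme gene Cnp 3.75-fold higher in V/SVZ, while the myelin protein gene Mbp was 2.98-fold higher in CP. Pdgfra and Cspg4, which mark precursors, were not called. Olig1 (log2 0.55, limma adjusted p = 0.0175) and Bcas1 (log2 0.56, limma adjusted p = 0.0130) were called higher in V/SVZ. Of 10 neural crest genes around Sox10, 5 were tested: 2 were called higher in V/SVZ, 2 in CP and Mitf was not called, with a median difference of 0.21. With no filter on dim probes 4 were called in CP. Ednrb, an endothelin receptor gene, was 33.5-fold higher in V/SVZ (16.2-fold with normexp), and Ret, a receptor gene not well above background in V/SVZ, at least 2.35-fold higher in CP.

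Markers of other cells in the dissections moved as follows beside the Sox genes. Of 10 interneuron markers tested, 6 were called higher in CP, with Npy 38.0-fold, Sst 3.82-fold and Gad1 1.91-fold, and 4 in V/SVZ, and the mean log2 relative signal of the list ran from -0.01 to 0.08 in V/SVZ and from 0.82 to 0.93 in CP. Sox6, which is also known from interneurons, was higher in the tissue where that mean was lower. Of 10 microglia markers, 7 were called higher in V/SVZ (P2ry12 5.22-fold) and 1, Itgam, in CP. The probes of Itgam disagreed in direction, as did those of Csf1r, which is among the 7. Of 6 red blood cell markers tested, 5 were called higher in V/SVZ (Hbb-bs 1.42-fold), and of 7 meningeal fibroblast markers 1 was called in V/SVZ (Col1a2, 2.05-fold) and 2 in CP (Col3a1, 2.20-fold). The part of these cells in the differences of the Sox genes was not tested.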

How the data were processed

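Agilent Feature Extraction 10.7.1.1 produced the deposited intensity values, per the file headers: 1 processed signal for each spot, with background removed within the array. The headers name build mm9, so coordinates are given only for RefSeq promoters on GRCm38.p6. A second file from the authors holds log2 values (17185 entries, 17163 of them gene probes), with a filter and scaling not given in the sources used here. Its columns correlated at 0.9996 to 0.9998 with the array of the same number from the opposite tissue and at -0.95 to -0.94 with the one in the column name, so it served only as an alternative, turned.

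Log2 values were averaged over the spots of each probe without outlier-flagged spots (142 to 258 gene spots per array), and the 75th percentile of each array was subtracted. RefSeq accessions named 26761 probes. Tested probes had to be well above background on all 4 arrays of either tissue, with values on 3 or more arrays of both. The brightest tested probe stood for its gene. limma 3.58.1 in R 4.3.3 (lmFit, eBayes) was fitted to all 8 arrays, with Benjamini-Hochberg adjustment across the genes, or across the probes where stated, and a threshold of 0.05. The fit was tested on simulated data. Pairs of genes or probes were compared by exact two-sided permutation of the 8 arrays and, as an alternative added after seeing the data, within the 4 sample numbers. "At least" marks a fold whose dim tissue is not well above background: there, each array of the dim tissue enters with its own value or with its lowest signal well above background, whichever is higher, before the means are compared. The number of arrays limits the precision.

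The members and lists were chosen with earlier results of these data known. By rule the text names all 9 Sox genes, every other tested Sox gene, the nearest gene of each Sox gene over the arrays and, from each list, the 3 called genes with the widest difference among those measured above background on every array plus the called gene that went most strongly against the list. Some genes of this rule are not reported here. Genes named outside this rule (Elavl4, Hes5, Acan, Olig1, Bcas1, Csf1r and those listed as not called or not tested) were chosen after their values were seen. Samples with the same number deviated together from their tissue means (r = 0.34, 0.31, 0.12 and 0.21 for numbers 1 to 4). For 3 of the 4 V/SVZ arrays, the CP array of the same number correlated best. The labels state no pairing, so the main tests were unpaired, and the numbers were taken to pair the samples only in alternatives. Alternatives were other scalings, normexp, other dim-probe filters, the mean of the probes, the replicate block, other variance models, array weights, kept outlier flags, the deposited table and leaving out each array.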

Additional observations from a re-analysis of the deposited data

How the results depend on the processing

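Leaving out each array in turn changed no call of the 9 Sox genes. Sox4, Sox12, Sox5, Sox6, Sox13, Sox8 and Sox9 kept their direction and call under every other setting that gave a value, with log2 ranges of -0.92 to -0.64 for Sox4, -0.51 to -0.23 for Sox12, 2.07 to 2.60 for Sox6, 0.66 to 1.06 for Sox13, 3.44 to 6.81 for Sox8 and 4.24 to 5.09 for Sox9, and a fold of 2.72 to 3.99 towards CP for Sox5. Sox10 was not called under any (-0.16 to 0.12). Sox8 and Sox10 gave no value from the deposited table. Sox8 also gave none with the filter that asks for signal well above background on all 8 arrays. With the replicate number as a block, no call of the 9 genes changed (Sox11 adjusted p = 0.00695, Sox10 0.354), and of the lists beyond the oligodendrocyte one, the microglia genes called in CP went from 1 to 2 and the endothelial ones from 0 to 1. Sox11 was not called with median scaling (-0.10) or normexp (-0.05) and turned to 0.017 with no scaling, which moved the median of all probes by 0.21 and the calls over genes from 6727 higher in V/SVZ and 8571 in CP to 8762 and 6189. Pou3f1 also turned with no scaling (0.0034, adjusted p = 0.956), Sox14 with normexp (-0.23, adjusted p = 0.0200) and Itgam with the deposited table (0.22, adjusted p = 0.0261). The Sox8 to Sox9 difference turned with normexp (-0.80). With the mean of the probes, the Sox4 to Sox12 (-0.26) and Sox11 to Sox12 (0.12) differences missed the threshold, and the latter, which ran from 0.21 to 0.29 over the 8 arrays left out in turn, also did so without each of the 4 CP arrays (adjusted p = 0.0571). An exact test within the 4 sample numbers, added after seeing the data, cannot pass the threshold (p = 0.125 for each pair): with this pairing the differences were -0.65 (Sox4 to Sox11), -0.41 (Sox4 to Sox12), 0.25 (Sox11 to Sox12), -4.32 (Sox5 to Sox6), -2.78 (Sox5 to Sox13), 1.54 (Sox6 to Sox13), 1.72 (Sox8 to Sox9), 6.69 (Sox8 to Sox10) and 4.97 (Sox9 to Sox10). With the deposited table, which holds fewer genes (53 of the Sox-linked lists), those called went from 36 to 23 in V/SVZ and from 33 to 21 in CP. Beyond that, the cause of these changes was not tested. The CP signal of Sox8, not well above background on any array, leaves its fold as a bound.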

Other observations

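For each Sox gene, the gene with the most similar values over the 8 arrays was found among 13296 genes with a symbol, by the Euclidean distance between log2 values centred on the mean of each gene. The nearest gene was Casp9 for Sox4 (distance 0.0588), Marchf7 for Sox11 (0.0545) and Lrrc75b for Sox12 (0.0915). It was Cdkn1c for Sox5 (0.212), Emx2 for Sox6 (0.136) and Higd1a for Sox13 (0.152). For the SoxE genes it was Casq1 for Sox8 (0.368), Iqgap2 for Sox9 (0.337) and Phtf1 for Sox10 (0.201). Cdkn1c, a cyclin-dependent kinase inhibitor gene, had a log2 difference of -1.96 beside the -1.92 of Sox5, and Emx2, a homeobox gene of cortical progenitors, had 2.40 as did Sox6. With 4 arrays of each tissue the distance is set mostly by the tissue difference, so it describes like size and direction and nothing more.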
